A study of Mus musculus with 8 samples.

Results

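The genes described here were the 8 genes of the mouse AP-1 transcription factor that are named for Fos, Jun and their closest early-response relative: Fos, Fosb, Fosl1, Fosl2, Jun, Junb, Jund and Atf3. They were taken by symbol and were 8 of the 32285 genes in the count matrices. The set was chosen with measured values in view, namely its summed level in T cells, which separated the groups of cells carrying different hashtag antibodies. That separation is therefore given here as a description, with no test.

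The cells were CD45.2+ leukocytes taken from the brain, so that tissue-resident and infiltrating immune cells were sequenced together, in droplets, with hashtag antibodies that mark which pooled sample a cell came from. There were 8 libraries, 1 per condition. C57BL/6J wild-type (WT) mice and App NL-G-F mice, which carry familial Alzheimer's disease mutations in the endogenous App gene, with no transgene, and accumulate amyloid-beta, were each left as controls or given acute colitis, chronic colitis or a food allergy. All mice were 16 weeks old per the labels. Acute colitis was 2% dextran sulfate sodium (DSS) in the drinking water for 1 week and chronic colitis 3 cycles of 5 days. The food allergy was raised with ovalbumin, as the methods describe. The methods name different sources for the WT and the App NL-G-F mice and give no background strain for the latter. No group had a deleted gene.

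Each library held 4 hashtags, which the labels do not tie to single mice, and a set of cells with the same hashtag in the same library is called a hashtag group below. Of 50089 cells, 43917 carried a single hashtag, 4665 carried several and were left out, and 1507 carried none. These cells fell into 30 hashtag groups of 30 to 3657 cells, and 2 hashtags had no group. A library held 25626190 to 54618574 unique molecular identifier (UMI) counts in its cells, and the median cell had 2775.5 to 4130 UMIs. Any pair of libraries shared 34 to 72 cell barcodes over the 28 pairs. Cells were assigned to 21 types by marker genes fixed for the purpose, and 10361 cells (20.7%) were left without a type. For each type and hashtag group the UMIs of a gene were summed and divided by all gene UMIs of those cells, which gave counts per 1000000 UMIs (CPM).

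AP-1 is a dimer of basic leucine zipper proteins. Fos proteins must pair with a Jun protein to bind DNA, whereas Jun proteins can also pair with each other, and the dimer binds the site TGANTCA in the regulatory regions of cytokine, chemokine, cell-cycle and matrix protease genes. Fos, Fosb, Jun, Junb and Atf3 are immediate-early genes: their transcripts are made within minutes of a stimulus from factors already in the cell and are quickly degraded. Fos, Jun and Junb are also well known to be induced while tissue is dissociated into single cells, especially by warm enzymes. T cells, mast cells, macrophages and neutrophils all use AP-1 when they are activated.

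The bases just before the transcript starts of Fos, Jun and Junb are shown because these 3 genes did not overlap between the sides in all T cells combined, as described below. They are 250 bases long, from RefSeq on GRCm38.p6, and are written 5′ to 3′ on the gene's own strand. Capitals mark matches, on either strand, to the cyclic-AMP response element core TGACGT, the AP-1-like site TGACNTCA, the AP-1 site TGANTCA or the TATA box TATAAA.
Fos, chr12:85473640-85473889, plus strand: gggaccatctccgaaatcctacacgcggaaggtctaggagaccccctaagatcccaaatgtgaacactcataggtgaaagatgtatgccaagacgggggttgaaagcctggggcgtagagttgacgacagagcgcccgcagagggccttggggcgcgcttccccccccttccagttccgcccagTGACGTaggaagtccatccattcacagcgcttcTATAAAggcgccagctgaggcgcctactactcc
Jun, chr4:95052223-95052472, minus strand: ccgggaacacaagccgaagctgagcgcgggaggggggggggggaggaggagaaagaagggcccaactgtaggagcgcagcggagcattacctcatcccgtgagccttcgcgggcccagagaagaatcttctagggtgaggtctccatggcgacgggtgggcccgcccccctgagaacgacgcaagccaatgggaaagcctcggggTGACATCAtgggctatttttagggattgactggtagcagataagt
Junb, chr8:84978749-84978998, minus strand: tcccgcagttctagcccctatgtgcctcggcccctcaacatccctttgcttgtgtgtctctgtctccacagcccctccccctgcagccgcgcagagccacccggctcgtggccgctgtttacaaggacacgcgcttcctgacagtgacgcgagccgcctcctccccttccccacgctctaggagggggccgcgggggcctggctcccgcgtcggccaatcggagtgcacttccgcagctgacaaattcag
The window before Fos held the response element core 66 to 61 bases and the TATA box 33 to 28 bases before the start. The window before Jun held the letters TGACATCA, a match to TGACNTCA, 45 to 38 bases before the start. None of the 4 motifs was found in the 250 bases before Junb. Of all 32851 windows of this length, 6.47% held TGACGT, 7.49% TGACNTCA, 6.75% TGANTCA and 12.4% TATAAA, so each match was of a common kind, and the motifs can overlap. Of the other members, Atf3 had a match to the response element core and Fosb, Fosl2 and Jund had none, with the RefSeq start of Atf3 34706 bases and that of Jund 1210 bases from the gene's start in the counting annotation.

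T cells carried the separation. The summed CPM of the 8 genes in T cells ran from 657 to 1002 (median 745) in 13 hashtag groups. It ran from 2152 to 4628 (median 3345) in 16 others, with no group of at least 20 T cells between. The gap, from 1002 in hashtag 5 of WT control to 2152 in hashtag 6 of App control, was 2.15-fold and the widest between neighbouring groups that left at least 5 groups on each side. The 2 sets are called the lower and the higher groups from here on. A single hashtag group, hashtag 4 of WT chronic colitis, had 13 T cells, under the minimum of 20, and was given no side. Its summed CPM of 1546 lay inside the gap.

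The sides did not follow genotype or treatment. In 8 of 8 libraries, hashtags 4 and 5 stood on the opposite side from hashtags 6 and 7, counting only hashtags with a side. In WT food allergy and App acute colitis hashtag 7 stood alone for its pair, as hashtag 6 had no cells. In WT chronic colitis hashtag 5 stood alone for its pair, as hashtag 4 had no side. Hashtags 4 and 5 were the lower ones in the control and chronic colitis libraries of both genotypes, and hashtags 6 and 7 were the lower ones in the acute colitis and food allergy libraries of both genotypes. Every library therefore held cells of both sides, captured and sequenced together. What distinguished the hashtag pairs when the samples were prepared is not given in the labels, so that animal, handling time and hashtag pair cannot be told apart.

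**Figure D1:**
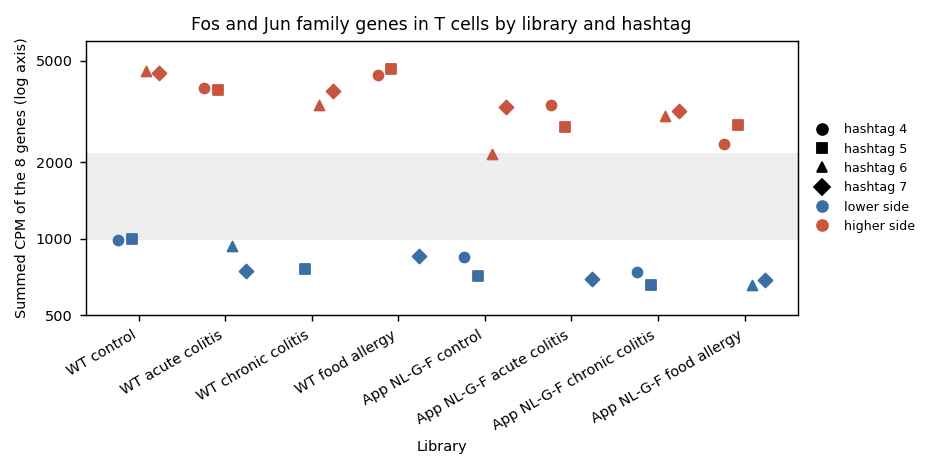
Summed CPM of the 8 AP-1 genes in T cells, on a log axis, for each hashtag group with at least 20 T cells, by library. The 13 lower groups lie between 657 and 1002 and the 16 higher groups between 2152 and 4628, and every library has points on both sides.

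Depth and mitochondrial share of the T cells overlapped between the sides. There were 4827 T cells in the lower groups and 4494 in the higher groups. The median UMIs per T cell ran from 2524 to 3728 over the lower groups and from 2225 to 3488 over the higher groups, and mitochondrial transcripts took 0.888% to 1.10% against 0.854% to 1.18%. The composition of the T cells was not the same: 2424 CD8 T cells, 641 CD4 T cells and 291 gamma-delta T cells came from lower groups, against 1138, 637 and 1127 from higher groups. The part of composition in the summed T cell values was not tested. Taken separately, the CD4, CD8 and gamma-delta T cells each had Fos and Junb without overlap between the sides, whereas Jun overlapped in CD4 and CD8 T cells.

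Fos, the founding partner of Jun in the dimer (GRCm38 12:85473890-85477273, plus strand), had the widest separation in T cells. In WT mice its T cell level in hashtags 4 to 7 was 13.3, 15.0, 510 and 333 CPM in the control library, and 369, 442, 14.0 and 16.9 CPM in acute colitis. It was 2.55, 300.3 and 399.9 CPM in hashtags 5 to 7 of WT chronic colitis, and 401, 335 and 5.11 CPM in hashtags 4, 5 and 7 of WT food allergy. The same alternation appears in App NL-G-F mice.

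In App NL-G-F mice Fos in T cells was at 15.1, 13.3, 184 and 365 CPM in hashtags 4 to 7 of the control library, and at 381, 282 and 18.0 CPM in hashtags 4, 5 and 7 of acute colitis. It was at 12.2, 6.69, 302 and 476 CPM in hashtags 4 to 7 of chronic colitis and at 195, 293, 3.59 and 12.1 CPM in those of food allergy. Over all groups the highest lower value was 18.0 CPM and the lowest higher value 184 CPM, a 10.2-fold step with no overlap. Some of the lower values rest on few molecules, with 2 Fos UMIs in hashtag 5 of WT chronic colitis and in each of hashtags 6 and 7 of WT acute colitis. Those of WT acute colitis, at 14.0 and 16.9 CPM, lie in the upper part of the lower range. The intervals of these values cover counting error only.

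Junb (8:84974484-84978718, minus strand), a Jun protein that activates less strongly than Jun and is itself induced early, had the next widest step. In WT T cells it was at 262, 234, 2577 and 2602 CPM in hashtags 4 to 7 of the control library, 2137, 2127, 267 and 262 CPM in those of acute colitis, and 182, 2029 and 2242 CPM in hashtags 5 to 7 of chronic colitis. In App NL-G-F T cells it was at 208, 182, 1182 and 1851 CPM in hashtags 4 to 7 of the control library and at 1258, 1497, 167 and 178 CPM in those of food allergy. Over all groups Junb ran from 167 to 267 CPM in the lower groups and from 1182 to 2955 CPM in the higher groups, a 4.43-fold step. The Junb gene overlaps Prdx2, and the part of this overlap in the Junb counts was not examined.

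Jun (4:95049034-95052222, minus strand), the partner that Fos proteins bind, also did not overlap in T cells, but its step was small. It ran from 15.1 to 70.2 CPM (median 31.9) in the lower groups and from 77.5 to 355 CPM (median 167) in the higher groups, with 1.10-fold between the nearest groups. Within the subsets Jun was apart in gamma-delta T cells only, at 28.2 to 113 against 185 to 810 CPM. It overlapped in CD4 T cells, at 0 to 63.8 against 10.8 to 261 CPM, and in CD8 T cells, at 5.51 to 34.0 against 15.3 to 208 CPM. Its antisense neighbour Junos overlaps it, and the part of this overlap in the Jun counts was not examined.

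The other 5 members overlapped between the sides in T cells. Jund, the Jun protein that most resting cells make constantly, was at 364 to 686 CPM in the lower groups and at 646 to 1078 CPM in the higher groups. Fosl2, a Fos relative with slower kinetics, was at 2.95 to 70.2 against 38.3 to 202 CPM. Fosb, an immediate-early Fos relative, was at 0 to 11.8 against 8.46 to 55.6 CPM. These 3 genes had higher medians in the higher groups (Jund 889 against 491, Fosl2 69.7 against 14.0 and Fosb 31.9 against 2.22 CPM).

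Atf3, a stress-induced partner of Jun that often represses, was nearly absent from T cells, with 0 to 21.1 CPM in the lower groups and 0 to 57.4 CPM in the higher groups. Fosl1, a Fos relative made late after a stimulus, was at 0 to 2.95 against 0 to 5.30 CPM, the level of a few molecules per group. The 7 members with at least 50 T cell UMIs thus included 3 whose sides did not overlap. Of all 10911 genes with that many UMIs, 31 (0.284%) were higher without overlap and 6 (0.055%) were lower without overlap in the higher groups. Because the members were chosen on these values, nothing is read from that count.

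**Figure D2:**
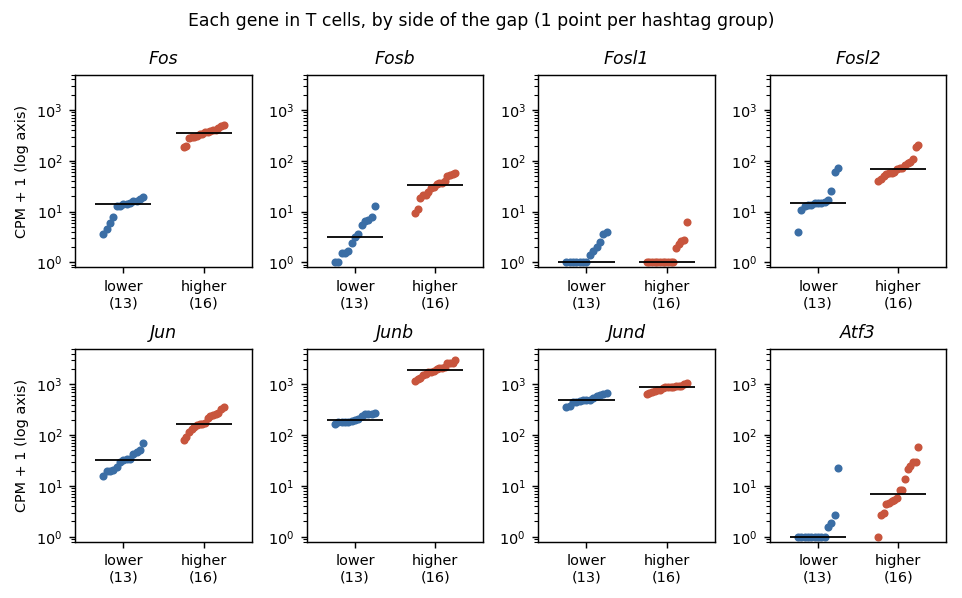
CPM + 1 of each of the 8 members in T cells, on a log axis, with 1 point per hashtag group and the lower and higher groups side by side. Fos (up to 18.0 against at least 184 CPM), Junb (up to 267 against at least 1182 CPM) and Jun (up to 70.2 against at least 77.5 CPM) are apart, and the points of the other 5 overlap.

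The share of T cells with a transcript showed the same division after the cells were brought to 1 depth. When each T cell was thinned to 1000 UMIs, leaving out 58 lower and 41 higher T cells that were shallower, Fos was seen in 0% to 3.33% (median 0.930%) of the cells of a lower group and in 13.5% to 26.9% (median 20.5%) of a higher group. Junb was seen in 10.0% to 27.0% against 53.2% to 75.8%, and Jun in 0% to 4.67% against 5.80% to 25.0%. Without thinning the Fos shares were 0.935% to 6.67% against 24.6% to 48.5%. In every higher group most thinned T cells therefore had a Junb molecule and a minority had a Fos molecule.

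Cells of both sides in a library share the same free RNA. Droplets without cells held 582 to 1992 CPM of Fos and 527 to 1479 CPM of Junb over the 8 libraries. Fos in the lower T cells was at most 0.256% to 2.80% of the level in the free RNA of the same library. As cells that should have little Fos, erythroid cells, whose 4 measured groups were all lower ones with median depths of 5248 to 11870.5 UMIs, had Fos in 0% to 2.70% and Junb in 0% to 2.82% of thinned cells. The Fos share of the lower T cells lay in about this range, whereas that of the higher T cells lay above it. The 4 erythroid groups all came from App NL-G-F libraries, and their cells were deeper than the T cells. Free Fos RNA was also higher in the WT libraries, so these groups cannot set a background level for WT T cells.

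The separation was shared by most other cell types. With the sides kept as T cells set them, 13 types had at least 3 groups of 20 or more cells on each side, and in 11 of them the summed CPM of the 8 genes did not overlap. Leaving out T cells and their subsets, this held for 7 of 9 types: B cells, NK cells, type 2 innate lymphoid cells (ILC2), monocytes, neutrophils, neutrophil precursors and plasmacytoid dendritic cells. Developing B cells (504 to 1447 against 985 to 2726 CPM) and plasma cells (591 to 1684 against 1278 to 2080 CPM) overlapped. The hashtag groups, not the cell types, are the units here, and all types of a hashtag group share its cells' handling.

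Among lymphocytes the size of the step varied. The sum was 584 to 1074 CPM in lower and 2101 to 5050 CPM in higher CD4 T cells, 533 to 865 against 1138 to 3283 CPM in CD8 T cells, and 642 to 1309 against 2810 to 6225 CPM in gamma-delta T cells. B cells had the least room between the sides, with 1103 to 1671 against 2000 to 4177 CPM, and NK cells had 799 to 1313 against 2019 to 4596 CPM. The widest gap among the B cell sums themselves, 1.36-fold, did not fall between the sides, with 26 groups below it and 1 above. ILC2, tissue-resident lymphocytes that make type 2 cytokines, had 1157 to 3208 against 7500 to 16347 CPM. Junb in ILC2 was at 395 to 2408 CPM in lower and 4786 to 10779 CPM in higher groups.

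Myeloid cells had wider steps. Neutrophils had 460 to 815 CPM in the lower and 3213 to 9347 CPM in the higher groups, their precursors 173 to 306 against 1267 to 4246 CPM, monocytes 273 to 474 against 2233 to 8876 CPM, and plasmacytoid dendritic cells 128 to 317 against 1511 to 1888 CPM. The 7 lower neutrophil groups and the 3 lower monocyte groups all came from App NL-G-F libraries, since no lower WT group had 20 such cells. Against the higher neutrophil groups of the App NL-G-F libraries alone, at 4855 to 7704 CPM, the lower neutrophils did not overlap either.

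**Figure D3:**
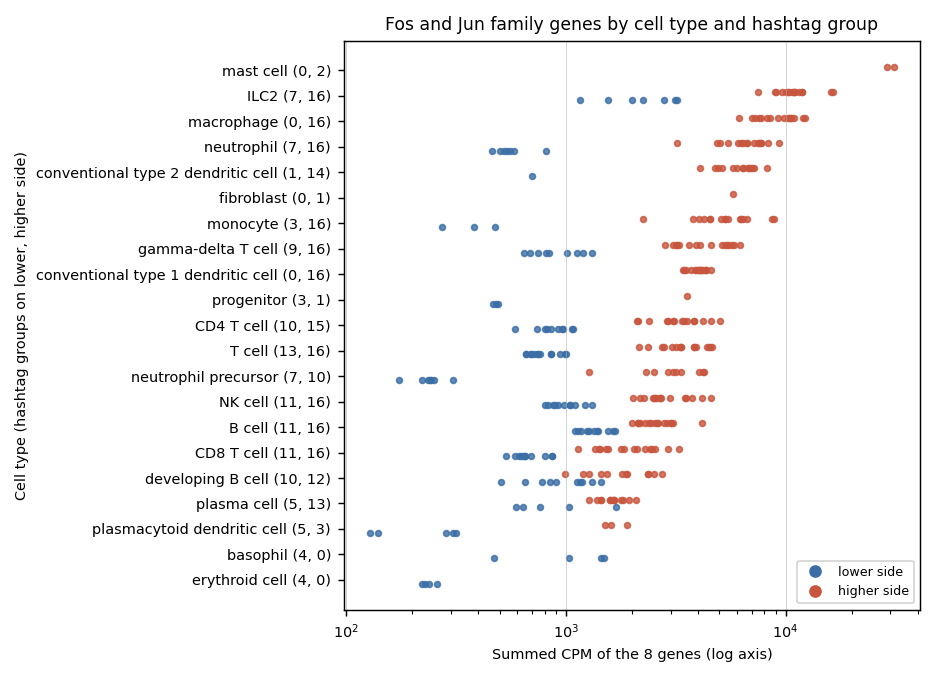
Summed CPM of the 8 AP-1 genes for each cell type, on a log axis, with 1 point per hashtag group of at least 20 cells, split into the sides that T cells set. Sides are apart in 11 of the 13 types that have at least 3 groups on each side, or in 7 of 9 without T cells and their subsets. Macrophages (6118 to 12193 CPM) have points on the higher side only.

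Some types were found mostly on 1 side, so that their levels could not be compared. Macrophages, which line the brain's borders, made up 1216 of the 27468 cells of the higher groups, with at least 21 in every group, and 39 of the 16419 cells of the lower groups, with at most 12 in any group. Conventional type 1 dendritic cells were 1276 against 47 cells, mast cells 192 against 6, and fibroblasts 125 against 0 of 16419. For this 0 the exact binomial 95% interval, which covers counting error alone, reaches a share of 0.0225%. Basophils were 32 cells in the higher and 218 in the lower groups. Erythroid cells (52 against 373) and microglia (7 against 45) were unevenly spread over the lower groups: hashtag 7 of App acute colitis held 214 of the erythroid cells, without which the lower groups had 159, and 6 of 13 lower groups had no microglia. The erythroid counts per group overlapped between the sides, at 0 to 19 in the higher and 0 to 214 in the lower groups. The hashtag groups of the 2 sides thus differed in the cells they held as well as in AP-1 transcripts, and whether these go together for 1 reason was not tested.

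Levels in these types are known from 1 side only, or nearly so. Macrophages had a summed CPM of 6118 to 12193 in 16 higher groups, type 1 dendritic cells 3410 to 4554 in 16 and type 2 dendritic cells 4078 to 8214 in 14, with 704 in the only lower group of the latter that had 20 cells. Mast cells, granule-filled sentinels of the brain's coverings, had 28979 and 31202 CPM in 2 higher groups. Basophils had 473 to 1496 CPM and erythroid cells 221 to 260 CPM, each in 4 lower groups.

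Fos itself was ordered by its median in the higher groups, over types with at least 2 such groups of 20 cells. Mast cells came first, at 7293 and 8549 CPM, then neutrophils at 1397 to 3688 (median 3069), macrophages at 1921 to 3654 (median 3044) and monocytes at 1023 to 3499 CPM (median 2261). Type 2 dendritic cells (median 1885), neutrophil precursors (1765), type 1 dendritic cells (1731) and ILC2 (1261 CPM, 987 to 2045) followed. The ranges of neutrophils, macrophages and monocytes overlapped, so their order lies within the spread of their groups. Below them stood gamma-delta T cells (median 577), plasma cells (547), plasmacytoid dendritic cells (531), all T cells (350), NK cells (292), B cells (275), the CD4 (259) and CD8 (140) subsets of T cells and developing B cells (94.3 CPM), again with ranges that overlapped between neighbours. In the lower groups Fos was at 23.4 to 219 CPM in neutrophils, 42.1 to 82.5 CPM in monocytes and 0 to 63 CPM in B cells.

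In neutrophils the 2 highest of the lower Fos values were 219 and 144 CPM in hashtags 4 and 5 of App control, and the other 5 lower groups were at 23.4 to 89.4 CPM. The most populated neutrophil group of all, the 1113 cells of hashtag 7 in App acute colitis, was a lower group with 438 Fos UMIs, or 30.7 CPM. In the same library the 52 and 41 neutrophils of hashtags 4 and 5 had 2548 and 3688 CPM of Fos. A mean over cells in App acute colitis would therefore mostly describe hashtag 7.

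The members differed in the cell types where they separated. Junb was apart in 12 and Fos in 11 of the 13 types, Jun in 6, Jund in 5, Fosb in 3, and Fosl1, Fosl2 and Atf3 in 2 each. The 13 include T cells, which set the sides, and their CD4, CD8 and gamma-delta subsets. The counts are therefore partly fixed by how the sides were set. The counts by type cannot be ranked against each other, since ranges of few groups part more easily and monocytes had 3 lower groups where T cells had 13. In monocytes 7 of 8 members were apart and higher, beside 174 of 9219 genes with at least 50 UMIs (1.89%) higher and 2.12% lower. In neutrophil precursors, with 7 lower groups, it was 7 of 8 members, beside 0.65% of 10763 genes higher and 0.297% lower. In plasmacytoid dendritic cells, with 3 higher groups, it was 3 of 4 members with at least 50 UMIs, beside 2.28% of genes higher and 2.51% lower. In plasma cells it was 0 members, beside 0.177% of 8491 genes higher and 2.5% lower. Among lymphocytes, 4 of 7 members were apart and higher in gamma-delta T cells (0.224% of genes higher, 0.0249% lower) and 3 of 7 in ILC2 (0.392% higher, 0.0356% lower). It was 2 members, Fos and Junb, in the CD4 subset (0.137% of genes higher, 0.0137% lower), in the CD8 subset (0.16% higher, 0.0107% lower) and in NK cells (0.163% higher, 0% lower), and 2 in developing B cells (0.0525% higher, 0% lower). Among genes with at least 50 UMIs in B cells, 13 of 9949 (0.131%) were higher without overlap and 3 (0.0302%) lower, with 2 of 7 members among the former. In neutrophils the corresponding numbers were 129 of 8557 (1.51%) and 7 (0.0818%), with 6 of 8 members among the former.

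Fosl1 was measurable mainly in neutrophils. It was at 208 to 662 CPM in their higher groups and at 0 to 2.98 CPM in their lower groups, and outside neutrophils and their precursors no group exceeded 21.8 CPM. Atf3 was highest in dendritic and phagocytic cells, with 250 to 1529 CPM in type 2 dendritic cells, 204 to 1370 CPM in macrophages and 134 to 557 CPM in monocytes of the higher groups, where the lower monocytes had 0 to 14.0 CPM. Fosb was at 119 to 655 CPM in higher macrophages and 32.4 to 412 CPM in higher neutrophils, against 0 to 0.21 CPM in lower neutrophils. Jun was at 1125 to 2912 CPM in macrophages and at 10120 and 13125 CPM in the mast cell groups.

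**Figure D4:**
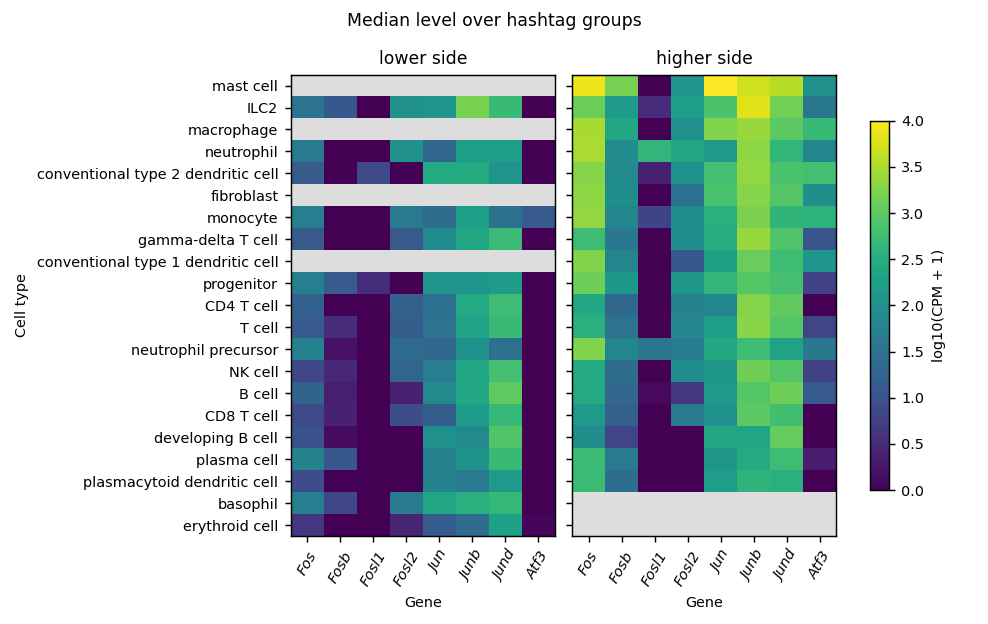
Median level of each member (columns) in each cell type (rows) over the lower (left) and the higher (right) hashtag groups, as log10(CPM + 1) in colour, with grey where no group was measured. Fosl1 stands out in higher neutrophils (208 to 662 CPM) and Jun in mast cells, and Junb and Fos are raised on the higher side in most types.

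Next, the 8 conditions were compared, which is the comparison the design implies. Hashtag groups served as samples, with 2 to 4 per condition, and p-values measure only the spread between hashtag groups of 1 library per condition. For App chronic colitis the study's number of mice is below the number of hashtag groups, so that some of these groups may come from the same animal and the p-values over hashtag groups may be too small. The sides were not balanced over the conditions: all WT neutrophil groups and the WT chronic colitis B cell groups were higher ones. The part of this imbalance in the counts of genes was not tested. In T cells 284 of 9075 genes (3.13%) differed among the conditions at an adjusted p under 0.05 by edgeR's quasi-likelihood test with Benjamini-Hochberg adjustment, in B cells 119 of 7896 (1.51%) and in neutrophils 50 of 5961 (0.839%). None of the 7, 6 and 8 members tested in these types was among them, nor with DESeq2. Without the filter on low counts the call changed: 6 members passed in B cells by edgeR, with an adjusted p of 1.21e-13 for Fos, 3.64e-12 for Junb and 1.42e-13 for Atf3, and Atf3 passed in T cells with an adjusted p of 0.0387. In B cells with the filter, edgeR's quasi-likelihood test gave an adjusted p of 0.983 for Fos and 0.934 for Junb. Why the filter changed the call was not tested, so no difference between conditions is read from the unfiltered values. With the filter, the smallest adjusted p of a member by edgeR's quasi-likelihood test was 0.332 in T cells, 0.297 in B cells and 0.391 in neutrophils, each for Atf3, which alone was under 0.05 before adjustment.

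Between App acute colitis and App control, 20 T cell genes (0.22%) passed by edgeR, and no B cell or neutrophil gene did (0% of those tested), with 307 and 259 genes under 0.05 before adjustment and 0 and 3 genes by DESeq2. No member passed in any of the 3 types by either tool. Fos was 0.61 log2 units higher in App acute colitis than in App control T cells with an SE of 1.41, 0.66 with an SE of 1.04 in B cells and 0.61 with an SE of 1.41 in neutrophils. For Fos among the 8 conditions, the adjusted p by edgeR's quasi-likelihood test was 0.998 in T cells, 0.983 in B cells and 0.995 in neutrophils. The sides enter both these differences and their SEs, since App acute colitis had 1 lower and 2 higher groups and App control 2 of each. With 1 hashtag group left out, the T cell difference ran from -0.060 to 1.64, the lowest without hashtag 4 of App acute colitis. Fos in T cells ran from 13.3 to 365 CPM in the App control groups and from 18.0 to 381 CPM in the App acute colitis groups. A p that misses the threshold does not show that the conditions were alike. The difference of treatment effects between the genotypes gave no member an adjusted p under 0.790 over 63 member contrasts.

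Within the higher groups the genotypes stood apart for some measures and not for others, which was not tested, since each condition is 1 library. The summed CPM in T cells was 3350 to 4628 in the 8 higher WT groups and 2152 to 3341 in the 8 higher App NL-G-F groups. T cell Junb was 2029 to 2955 against 1182 to 1851 CPM, NK cell Junb 1371 to 2217 against 906 to 1336 CPM, and macrophage Jun 1854 to 2912 against 1125 to 1666 CPM. T cell Fos overlapped, at 300.3 to 510 against 184 to 476 CPM. Other measures overlapped too or ran the other way: the sum in B cells was 2000 to 4177 in WT against 2121 to 2889 CPM in App NL-G-F groups, in ILC2 9660 to 16347 against 7500 to 11902 CPM and in neutrophils 3213 to 9347 against 4855 to 7704 CPM. The median Fos was lower in WT than in App NL-G-F B cells (221 against 282 CPM) and ILC2 (1156 against 1337 CPM), with overlapping ranges. Free RNA moved the same way between genotypes, with 865 to 1992 CPM of Fos in the WT and 582 to 858 CPM in the App NL-G-F libraries and 772 to 1479 against 527 to 607 CPM of Junb, and its part in these differences was not tested.

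Genes around AP-1 were then described from fixed lists, again by whether the sides overlapped. Of the other immediate-early genes, 5 of 18 with at least 50 T cell UMIs were apart and higher, with a median over the list of 1.28 against 0.005 over all genes, as the log2 ratio between the sides' median CPM with 10 CPM added to each. They were Ier2 and Btg2, early growth regulators, Klf4, a zinc-finger factor, and Rgs1 and Rgs2, which damp G-protein signals. Rgs2 was at 5.02 to 25.4 against 71.6 to 168 CPM and Rgs1 at 164 to 305 against 400.4 to 768 CPM, while Egr2 (0 to 33.9 against 0 to 45.4 CPM) and Egr3 (0 to 16.9 against 0 to 80.0 CPM), induced by antigen receptor signals, overlapped.

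Of the feedback inhibitors, which switch off the kinases or transcripts of an early response, 2 of 12 were apart in T cells, with a median log2 ratio of 1.48. They were the kinase phosphatases Dusp1, at 14.4 to 140.4 against 514 to 764 CPM, and Dusp5, at 25.1 to 63.2 against 68.6 to 319 CPM. Socs3, a cytokine-signal inhibitor, overlapped at 11.8 to 119 against 46.6 to 226.5 CPM, as did the phosphatase Dusp2 at 172 to 254 against 100.1 to 347 CPM.

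Upstream genes, related factors and targets overlapped between the sides in T cells. Of the kinases and factors upstream of Fos and Jun, 0 of 18 were apart, with a median log2 ratio of 0.004, and of other basic leucine zipper factors 0 of 19, with 0.11. The kinase Map3k1 was at 35.1 to 59.2 against 40.6 to 88.4 CPM, and the cyclic-AMP factor Creb1 at 35.4 to 71.1 against 50.8 to 71.5 CPM. Of 13 measured textbook AP-1 targets of leukocytes none was apart in T cells (median 0.25), with the cytokine Tnf at 0 to 45.5 against 29.4 to 175 CPM and the chemokine Cxcl2 at 0 to 7.02 against 6.76 to 129 CPM.

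Heat-shock chaperones, another group induced by handling stress, had 0 of 8 apart in T cells and a median log2 ratio of -0.05. Hspa8, the abundant constitutive chaperone, was at 2036 to 3984 against 2180 to 4798 CPM, and the inducible Hspa1a at 0 to 11.1 against 0 to 31.5 CPM. Housekeeping genes had 0 of 10 apart and a median of 0.04, with the folding enzyme Ppia at 3222 to 4318 against 3368 to 4376 CPM. No gene of any list was apart in the lower direction in T cells, B cells or neutrophils.

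In neutrophils the targets separated as well. There 8 of 10 measured AP-1 targets were apart and higher, among them the chemokine Cxcl2 at 10.9 to 53.3 against 1440 to 8837 CPM, the cytokine Il1b at 0.911 to 189 against 873 to 7762 CPM, the chemokine Ccl4 at 0 to 8.94 against 109 to 717.5 CPM and the urokinase receptor Plaur at 326 to 572 against 1178 to 2962 CPM. Of the other immediate-early genes 9 of 17 were apart, with the nuclear receptor Nr4a1 at 0 to 9.94 against 267 to 811 CPM and the zinc-finger factor Egr1 at 0 to 5.43 against 103 to 646 CPM. Of the feedback inhibitors 4 of 10 were apart, of the other zipper factors 1 of 17 (Atf4), of the chaperones 1 of 6 (Dnajb1), and of the upstream genes 0 of 18 and housekeeping genes 0 of 10. The lower neutrophil groups all came from App NL-G-F libraries, whereas the higher ones came from both genotypes. Median UMIs per neutrophil ran from 2022 to 12570 over the lower and from 1734 to 10940 over the higher groups. The parts of genotype, depth and neutrophil maturity in these ranges were not tested.

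In B cells, fewer list genes were measured. The immediate-early genes Klf4 and Rgs1 were apart (2 of 16), as were Dusp1, Dusp5 and the transcript-decay factor Zfp36l1 (3 of 12), and none of 17 other zipper factors, 18 upstream genes, 5 targets, 7 chaperones or 10 housekeeping genes was.

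**Figure D5:**
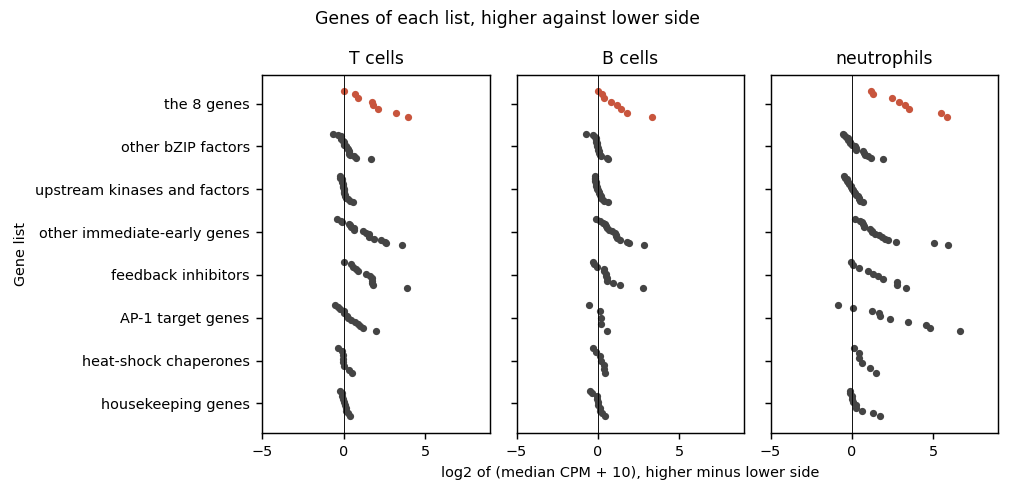
Difference between the medians of the higher and the lower groups, as log2 of median CPM + 10, for each gene (points) of each fixed list in T cells, B cells and neutrophils, with the 8 members on top. Points of the AP-1 targets reach far to the right in neutrophils, where 8 of 10 are apart, while upstream and housekeeping genes lie around 0 in the 3 types.

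The genes with patterns most like that of Fos were found by correlation on log2(CPM + 10) over hashtag groups, among genes with a mean of at least 50 CPM. In T cells, over 29 groups, they were Rgs2 (r = 0.975), Dusp1 (0.966), Areg (0.949, also an ILC2 marker here), Ppp1r15a (0.948), Rgs1 (0.938), Gadd45b (0.937), Ier2 (0.929), Cd69 (0.928), Zfp36 (0.923) and Btg2 (0.917). In B cells, over 27 groups, they were Cd69 (0.932), Dusp1 (0.932), Egr1 (0.888), Zfp36l1 (0.888) and Dusp5 (0.809), and in neutrophils, over 23 groups, Nr4a1 (0.978), G0s2 (0.976), Gadd45a (0.974), Pde4b (0.970) and Osm (0.967). The groups form 2 clusters, 4 at a time share a library, and the coefficients mostly reflect the 2 sides. Within the 16 higher groups alone the T cell coefficients of the same 10 genes ran from 0.0623 (Rgs1) to 0.737 (Ier2).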

How the data were processed

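The authors counted UMIs per gene and hashtag antibody with Cell Ranger (6.1.2 in the submitters' notes) on mm10 and deposited, per library, the raw matrix of UMI counts over all barcodes. Those counts were used as deposited, and no per-sample column was left unused (0). Cells were barcodes above Cell Ranger's order-of-magnitude cutoff for 3000 expected cells or that differed from the ambient profile (1000 simulations, false discovery rate 0.01), with at least 500 UMIs, 200 genes and at most 5% mitochondrial UMIs. A hashtag was positive above the lowest point between its background and positive modes and at least 50 counts. Cells with several hashtags were left out as doublets, and no doublet caller was run. A type needed at least 3 detected markers of its list, and a share of detected markers of unrelated types no more than 0.5 of its own. The authors' own cell annotation was not used here, so types may differ from the study's.

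UMIs were summed per type and hashtag group of at least 20 cells. Intervals (exact Poisson, 95%) cover counting error only. Counts were tested with edgeR 4.0.16 (TMM, filterByExpr, quasi-likelihood) and DESeq2 1.42.0 in R 4.3.3, with adjusted p under 0.05 over all genes tested, and the rest was computed in Python 3.11.15. The code was tested on simulated data with 200 changed genes. Named genes were all members, the 10 genes most correlated with Fos in T cells, 5 each in B cells and neutrophils, and list genes by a fixed rule. The members and the lists (other zipper factors, upstream kinases and factors, other immediate-early genes, feedback inhibitors, AP-1 targets, heat-shock chaperones, housekeeping genes) were chosen with earlier results of these data known. Alternatives changed the hashtag cutoff, cell calling, mitochondrial limit, gate, minimum cells, CPM denominator, ambient subtraction, normalization, filter and test, and left out each hashtag group. Upstream sequences came from RefSeq (GRCm38.p6), which matched 7 of 8 members.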

Additional observations from a re-analysis of the deposited data

Results flagged for a closer look

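In sets of 4 hashtag groups of 1 condition, 94 sets of member values were examined and 9 held a group whose gap to its nearest neighbour exceeded Dixon's 95% critical share of the range. For 4 values from 1 normal distribution, chance gives this in about 1 in 20 sets. The sets here held both lower and higher groups and often few UMIs, so the 9 cannot be read against that rate. All 9 lay in Fosl1, Fosl2 or Atf3. The outlying group held 0 to 3 UMIs of the gene, except for Atf3 in App control. There Atf3 had 26 UMIs in T cells of hashtag 7 and 10 UMIs in neutrophils of hashtag 6. In T cells, Atf3 was at 28.09 CPM (26 UMIs) in hashtag 7 of App control, with 0 to 0.864 CPM in the other groups, and at 0.0 CPM in hashtag 6 of App food allergy, with 1.65 to 1.93 CPM in the others. Fosl1 in T cells was at 2.953 CPM (2 UMIs) in hashtag 5 of App control, 5.296 CPM (3 UMIs) in hashtag 6 of App chronic colitis and 0.7178 CPM (1 UMI) in hashtag 6 of App food allergy. In B cells, Fosl2 was at 9.319 CPM (3 UMIs) in hashtag 7 of App control, with 1.28 to 2.38 CPM in the others, Fosl1 at 2.457 CPM (3 UMIs) in hashtag 6 of App chronic colitis, and Atf3 at 4.191 CPM (1 UMI) in hashtag 4 of App food allergy. Atf3 in neutrophils was at 14.26 CPM (10 UMIs) in hashtag 6 of App control, with 0 to 1.07 CPM in the others.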

How the results depend on the processing

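Every hashtag group kept its side under each alternative (29 of 29, or 27 of 27 with at least 50 cells). The T cell gap was 2.79-fold after ambient subtraction and 2.15 to 2.35 with 1 hashtag group left out. With at least 50 cells, 7 of 8 types were apart, and 10 to 12 with 1 group left out. The members apart in T cells were 4 after ambient subtraction (with Fosb) or with at least 50 cells (with Fosl2), and 3 to 4 with 1 group left out. Genes differing among the 8 conditions numbered 243 to 308 in T cells, 94 to 159 in B cells and 18 to 60 in neutrophils with 1 group left out. Without the filter on low counts they numbered 736 in B cells (with Fos, Fosb, Fosl2, Jun, Junb and Atf3 among them) and 112 in neutrophils, where DESeq2 gave 96 and at least 50 cells gave 31. The neutrophil count was 18 and 19 without hashtag 6 or 7 of WT control, 32 and 31 without hashtag 4 or 5 of WT acute colitis, and 28 without hashtag 5 of WT food allergy. Between App acute colitis and App control, the T cell count was 33 unfiltered and 15 to 22 with 1 group left out. The B cell count was 115 unfiltered, 1 under the stricter gate and 0 to 2 with 1 group left out, and the neutrophil count 4 unfiltered, 3 with DESeq2 and 0 to 6 with 1 group left out. In that contrast the log2 difference of Fos was -0.45 in neutrophils with at least 50 cells, and it ran from -0.060 to 1.64 in T cells, 0.23 to 1.24 in B cells and -0.061 to 1.23 in neutrophils with 1 group left out. It was lowest without hashtag 4 (T cells) or 5 (neutrophils) of App acute colitis. Atf3 passed in T cells without the filter (adjusted p = 0.0387, edgeR), and a member passed in B cells without hashtag 5 of WT control (adjusted p = 0.0263, edgeR). The causes were not tested. No paired analysis was possible because the labels give no replicate numbers and do not say whether a hashtag number marks the same animal or batch in different libraries. A fit with the side as a term was not made, since the sides were set from the members' own values.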

Other observations

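The T cells that carried several hashtags, which entered no comparison, numbered 570 in the 8 libraries. Their summed CPM of the 8 AP-1 genes ran from 2075 to 4306 over the libraries, as values of mixed droplets that belong to no hashtag group.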
